A study of Mus musculus with 6 samples.

Results

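The axon guidance genes described here are the ephrins and Eph receptors, the semaphorins with their plexin and neuropilin receptors, the netrins with Dcc, Neo1 and the Unc5 receptors, and the Slits with their Robo receptors. They were picked by gene symbol, with earlier results of these data known. Of the 23235 entries in the RNA-seq table, 70 carried such a symbol (35 ligands and 35 receptors). The table compares cultures of E14Tg2a, a mouse embryonic stem cell (ESC) line, in 2 conditions with 3 samples each. ESCs were kept pluripotent with leukemia inhibitory factor (LIF). The other cultures, called neuronal cells (NCs), were LIF-free monolayers of the same line that had received 1 μM retinoic acid (RA) for 48 h. All samples came from this line at passages 37-40, and RNA of each replicate was isolated from 2 60-mm plates. No LIF-free culture without RA is among the samples, so loss of LIF and addition of RA cannot be told apart.

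Guidance cues steer a growing axon by attracting or repelling its growth cone, and each cue acts on cells that carry its receptor. Ephrins are held on the cell surface, so they act between touching cells, whereas class 3 semaphorins, netrins and Slits are released and act over a distance. The same molecules also work outside axons, in cell sorting, in the borders between rhombomeres of the hindbrain, in cell migration and in blood vessel growth.

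Each gene had 1 FPKM value (cDNA fragments per kilobase of mRNA, corrected for library size) per condition, which the authors had pooled from the 3 replicates. No SD, n or p-value is given. The authors' own test statistics and p-values were not used, so no difference below has a replicate check. FPKM is scaled to transcript length, so levels of different genes can be set side by side. A gene was called higher or lower in NCs when its FPKM differed at least 2-fold and reached 1 FPKM in the condition where it was higher. In bulk RNA, fewer cells of a type and less RNA per cell cannot be told apart.

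The labels of the cultures were checked against marker genes. All 7 pluripotency markers were lower in NCs, with Pou5f1 at 832 FPKM in ESCs against 37.1 FPKM in NCs. Of 6 neural progenitor markers, 5 were higher, with Pax6 at 3.64 and 65.2 FPKM. None of 7 neuron markers was called higher. Tubb3 (33.4 and 7.54 FPKM) and Elavl3 (5.03 and 0.632 FPKM) were lower, and Dcx (0.014 and 0.334 FPKM) and Snap25 (0.573 and 0.204 FPKM) stayed under 1 FPKM. Rbfox3, which marks mature neurons, was at 1.11 and 0.832 FPKM. The name neuronal cells is therefore kept here only as the label of the RA cultures.

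Of the 70 guidance genes, 54 (77.1%) reached 1 FPKM in at least 1 condition, against 57.2% of all entries. NCs had the higher value for 25 of these 54 genes at the 2-fold limit (46.3%), and the lower value for 4 (7.41%). Over all 13293 entries at 1 FPKM or more, 12.5% were called higher and 10.6% lower. Of the 29 guidance genes called, 86.2% were higher in NCs, against 54% of all called entries. After both columns were scaled to the same sum, these shares were 89.7% and 70.6%, with 48.1% of the 54 guidance genes and 17.7% of all entries called higher, and 5.56% and 7.37% called lower. The folds themselves were close, as the median fold was 3.08 for guidance genes called higher and 3.21 for all such entries. The other 25 genes lay within 2-fold. The median log2 ratio of NCs to ESCs over all 70 genes was 0.61, and over the 18191 entries above 0 in both conditions it was -0.01.

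More of the guidance genes were also above 1 FPKM in NCs. In ESCs 44 of 70 reached that level and in NCs 54. The 10 that crossed it upwards were Dcc, Efna5, Nrp1, Plxna2, Robo2, Sema3a, Sema3d, Sema6d, Slit1 and Slit2, and 0 crossed it downwards. These 10 are 14.3% of the 70 genes, and over all entries 4.09% crossed it upwards and 2.69% downwards. The FPKM of all 70 summed to 299 in ESCs and 414 in NCs. Levels of at least 10 FPKM were held by 8 genes in ESCs and 13 in NCs. The 16 genes under 1 FPKM in both conditions reached 0.979 FPKM at most, and 11 of them had the higher value in NCs.

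**Figure D1:**
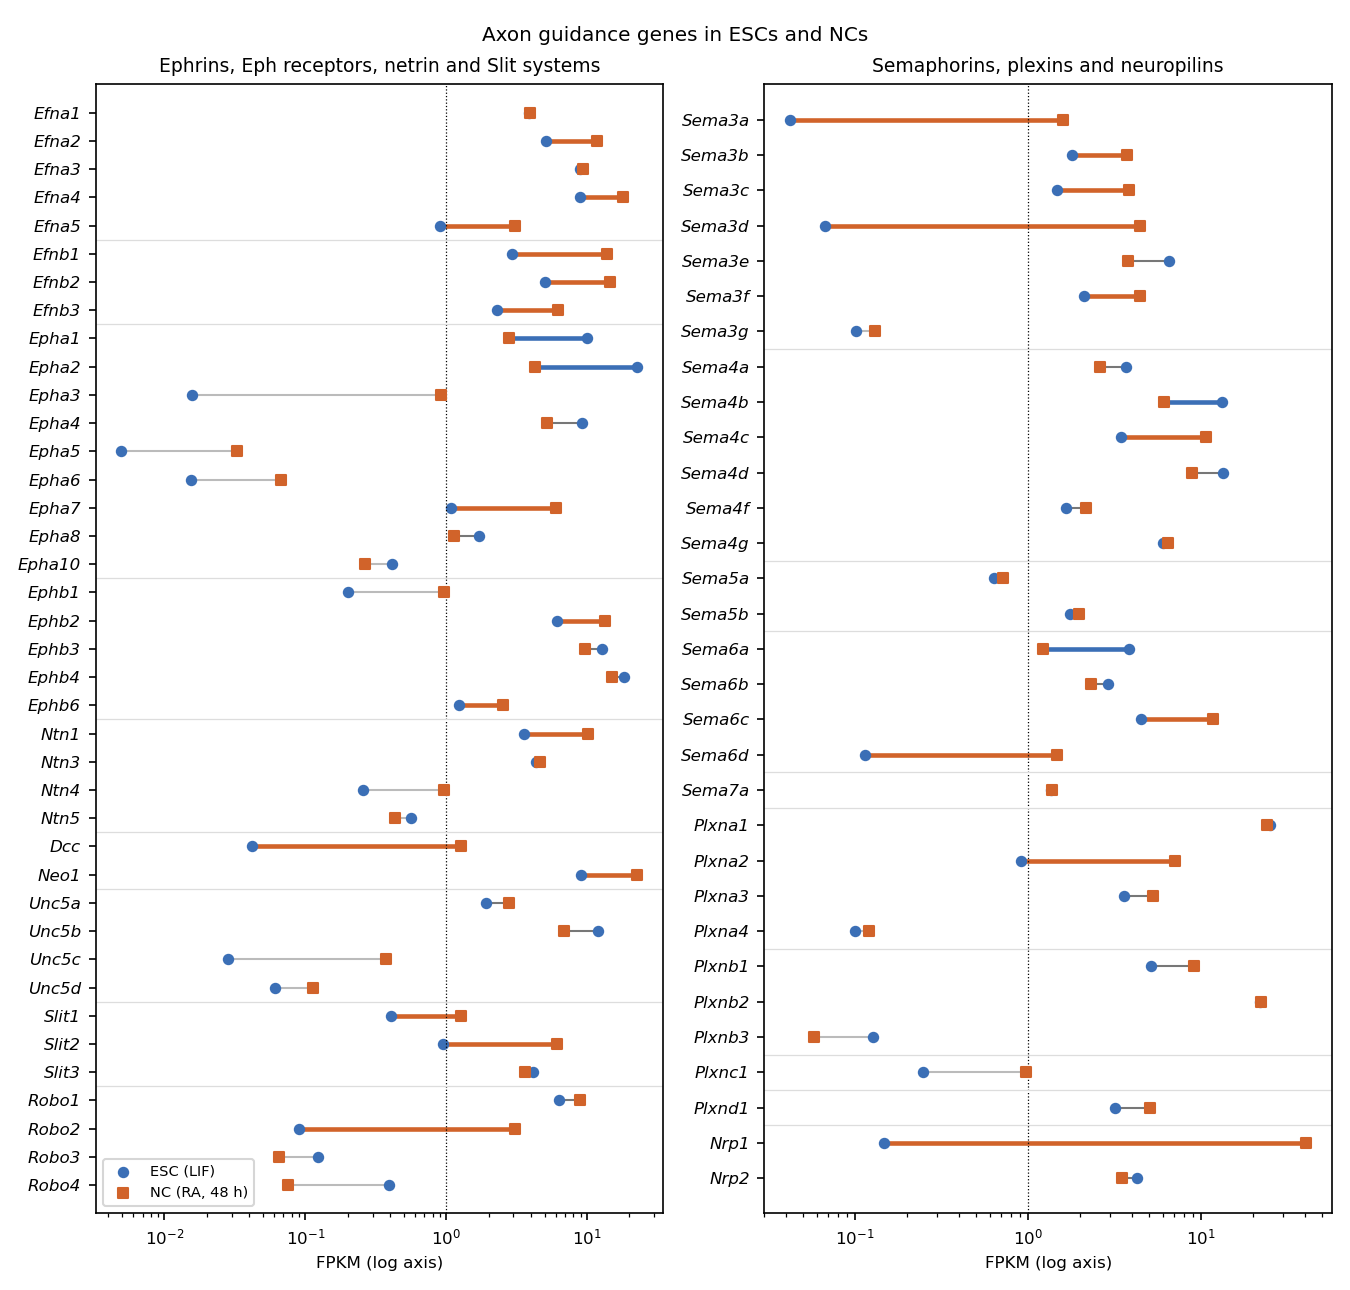
FPKM of the 70 guidance genes (log axis) in ESCs (circles) and NCs (squares), 1 pooled value per condition with no error bar. Thick lines join genes called higher (orange) or lower (blue), thin lines the rest, and the dotted line marks 1 FPKM. The longest line is that of Nrp1, from 0.147 to 40.6 FPKM.

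The number of fragments per library is not stated, and depth could be read only from the lowest values. For a transcript with 1 kb open to fragments, 1 fragment was worth about 0.0138 FPKM in ESCs, a step at which 75 of 557 low values lay (13.5%, for fragments of 200 bases). On that step the low ESC values of genes called higher stood for about 36.4 fragments for Nrp1, 30.6 for Dcc, 29.7 for Sema3d, 17.6 for Sema3a, 55 for Robo2 and 52.2 for Sema6d. By these estimates, which use the longest coding transcript and the step as read, these genes lay above a floor of 3 fragments in ESCs. Their folds still rest on few fragments in ESCs, and the estimates cover counting error only.

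The largest differences in each direction belonged to receptors. Neuropilin-1 (Nrp1) is the co-receptor through which class 3 semaphorins act on plexins, and it also binds VEGF. Nrp1 lies on the plus strand of mm10 at chr8:128358604-128503363. Its level was 0.147 FPKM in ESCs against 40.6 FPKM in NCs, which is 275-fold (log2 ratio 8.11, or 5.18 after adding 1 FPKM to both values). Among the 13293 entries at 1 FPKM or more, 98.8% had a higher ESC value than Nrp1, but only 16.8% a higher NC value. It was the highest of all guidance genes in NCs, with 9.81% of their summed FPKM. Epha2, an Eph receptor tyrosine kinase, lies on the plus strand at chr4:141301240-141329384. Its level was 22.8 FPKM in ESCs against 4.25 FPKM in NCs, 5.37-fold lower, and no other guidance gene had a larger fold downwards among those called.

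The windows of 300 bases around the RefSeq transcription starts of Nrp1 and Epha2 are shown because these genes had the largest difference in each direction. They hold 250 bases before the start and 50 after it (GRCm38.p6, plus strand). Capitals mark TGACCT, the reverse complement of AGGTCA, which is the core hexamer that retinoic acid receptors and other nuclear receptors bind, and TGACGTCA, the cAMP response element. The Nrp1 window is chr8:128358823-128359122 and the Epha2 window is chr4:141300971-141301270. The Nrp1 window lies wholly inside the gene span given above, which begins at chr8:128358604. Sequence before that other start of Nrp1 was not searched.
Nrp1: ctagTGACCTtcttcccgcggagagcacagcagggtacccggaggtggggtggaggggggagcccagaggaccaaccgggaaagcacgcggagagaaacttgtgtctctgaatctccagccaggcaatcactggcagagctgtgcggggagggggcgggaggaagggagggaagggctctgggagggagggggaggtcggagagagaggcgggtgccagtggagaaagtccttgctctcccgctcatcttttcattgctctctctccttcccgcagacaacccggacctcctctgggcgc
Epha2: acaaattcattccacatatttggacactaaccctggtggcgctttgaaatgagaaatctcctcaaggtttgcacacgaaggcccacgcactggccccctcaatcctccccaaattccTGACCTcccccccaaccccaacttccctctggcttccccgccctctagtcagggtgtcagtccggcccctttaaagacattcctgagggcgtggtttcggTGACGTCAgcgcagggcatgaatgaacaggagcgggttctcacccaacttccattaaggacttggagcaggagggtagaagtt
In Nrp1 the TGACCT match began at base -246 from the start, and in Epha2 at base -133. Epha2 also held a TGACGTCA at base -33, and was the only guidance gene with this element in its window. The Nrp1 window had 64% GC and 14 CpG, and the Epha2 window 54.7% GC and 10 CpG. Both had fewer CpG than their base composition gives, with observed over expected ratios of 0.474 and 0.46.

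Windows were given for 60 of the 70 genes (76 windows, since some genes have several starts). AGGTCA, read on both strands, stood in 11 of the 76 (14.5%) and in 16.3% of all 32851 mouse windows. Among genes at 1 FPKM or more, it stood in 11.3% of 62 guidance gene windows and 12.4% of 12393 windows in all. Among guidance genes called higher, it stood in 1 of 25 windows (from 19 genes), that of Nrp1. Among genes within 2-fold, it stood in 4 of 33 windows (from 24 genes). Of the genes called lower, Epha2 and Sema4b held it. TGACGTCA stood in 1 guidance gene window (1.32%) and in 1.79% of all. The octamer ATGCAAAT, bound by POU factors, stood in 0, against 1.74% of all. Direct repeats with 1, 2 or 5 bases between the hexamers stood in 0, against 0.588%. Each hexamer of such a repeat could be AGGTCA or a variant of it (AGTTCA as well as GGGTCA and the hexamer GGTTCA), on both strands. A window rich in CpG (observed over expected of at least 0.6) was found for 56.5% of guidance gene windows and 69.1% of all windows of genes at 1 FPKM or more. That share was 60% for the guidance genes called higher and 54.5% for those within 2-fold. A motif match is a stretch of letters and does not show that a factor is bound.

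**Figure D2:**
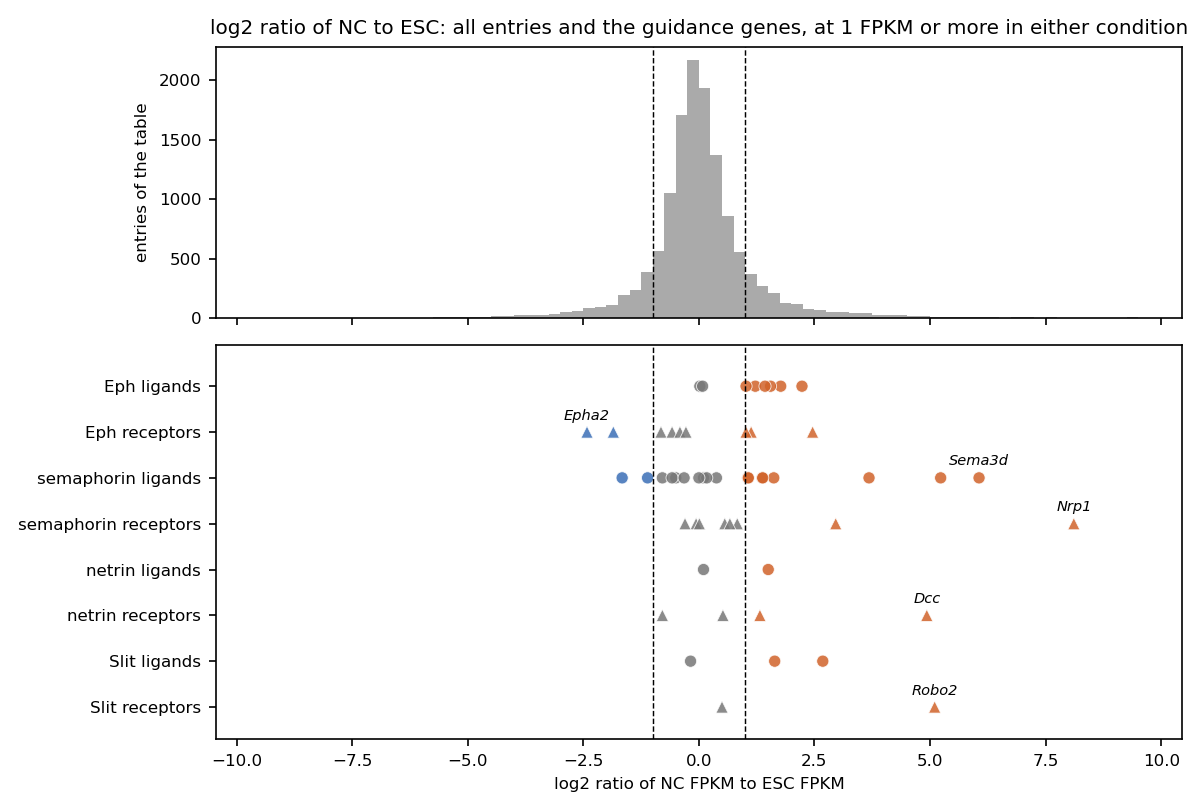
The log2 ratio of NC to ESC FPKM at 1 FPKM or more in either condition, for all entries as a histogram (top, number of entries per bin) and for the guidance genes by system (bottom, circles for ligands and triangles for receptors). Dashed lines mark 2-fold, orange points were called higher and blue points lower. The histogram is centred near 0, whereas 25 guidance genes lie to the right of the upper limit and 4 to the left of the lower one.

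Among the ephrins, all 8 had a higher value in NCs and 6 were called. Their summed level was 38 FPKM in ESCs against 81 FPKM in NCs. The ephrin-B ligands, which span the membrane and can signal back into their own cell, were all called. Efnb1 was at 2.95 and 13.8 FPKM (4.69-fold), Efnb2 at 5.02 and 14.6 FPKM (2.92-fold) and Efnb3 at 2.31 and 6.22 FPKM (2.7-fold). Efnb1 was the middle of these ligands in both conditions, and lay closer to Efnb2 in NCs.

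The ephrin-A ligands are tied to the membrane by a lipid anchor. Efna2 was at 5.08 FPKM in ESCs against 11.8 FPKM in NCs (2.33-fold), and Efna5, a cue for retinal axons in the tectum, at 0.906 and 3.1 FPKM (3.42-fold). Efna4 was at 8.95 and 18.1 FPKM, just inside the 2-fold limit at 2.03-fold, and it was the highest ephrin in both conditions. Its transcripts share 7.68% of their 50-base words with the antisense gene 4731419I09Rik, and strand use in the counting is not stated. Efna1 (3.87 and 3.91 FPKM) and Efna3 (8.88 and 9.4 FPKM) differed little. Efna3 shares 8.13% of its words with the antisense gene Gm15998.

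The EphA receptors, which mostly bind ephrin-A ligands, had a summed level of 45.2 FPKM in ESCs against 20.6 FPKM in NCs, 2.19-fold lower, while their ligands summed to more. Epha2 made up 50.5% of the EphA sum in ESCs and 20.6% in NCs. Epha1, the other EphA receptor called lower, was at 9.95 and 2.77 FPKM (3.6-fold). It overlaps Zyx on the opposite strand, and fragments of the overlap could not be assigned by strand here. Epha1 transcripts share 5.54% of their 50-base words with other genes, mainly 2010010A06Rik. Epha4, which also binds ephrin-B ligands, was at 9.14 and 5.18 FPKM, a 1.76-fold difference that was not called. Epha7 went against its family at 1.09 FPKM in ESCs against 5.99 FPKM in NCs (5.51-fold), and became the highest EphA receptor with 29.1% of the NC sum. Epha8 was at 1.71 and 1.14 FPKM. Without Epha2 the ratio of the EphA sums was 0.732 in place of 0.457.

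Of the EphA receptors under 1 FPKM, Epha3 came nearest to it, at 0.0157 FPKM in ESCs against 0.916 FPKM in NCs. Its ESC value stood for about 6.23 fragments. Epha5 and Epha6 were at 0.0677 FPKM or less in both conditions, and Epha10, which lacks kinase activity, was at 0.412 and 0.267 FPKM.

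The EphB receptors summed to nearly the same in both conditions (38.5 and 41.5 FPKM), with a changed order. Ephb2 was at 6.11 FPKM in ESCs against 13.4 FPKM in NCs (2.19-fold), and Ephb6, whose kinase domain is inactive, at 1.24 and 2.52 FPKM (2.03-fold). Ephb3 (12.8 and 9.61 FPKM) and Ephb4 (18.2 and 15 FPKM) were within 2-fold. Ephb4, the receptor known from veins, was the highest EphB receptor in both conditions. It overlaps Zan on the opposite strand, and its direction turned when both columns were scaled to the same sum (log2 ratio -0.28 as deposited and 0.02 after scaling). Ephb1 was at 0.201 and 0.961 FPKM.

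**Figure D3:**
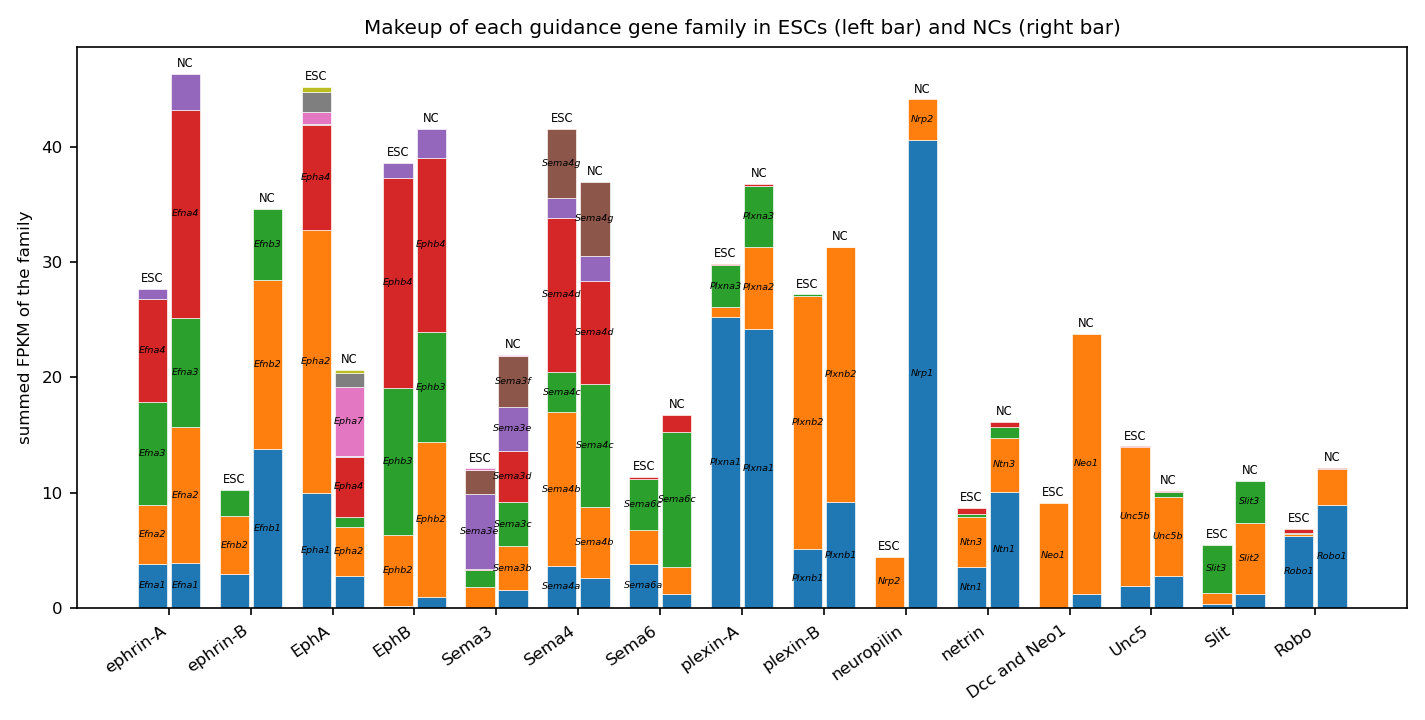
Summed FPKM of each family in ESCs (left bar) and NCs (right bar), split by member. Colours are reused between families, and members with a large segment carry their names. The neuropilin bar changes most, from 4.43 FPKM made up mainly of Nrp2 to 44.1 FPKM made up mainly of Nrp1, and the EphA bar becomes shorter, from 45.2 to 20.6 FPKM.

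Class 3 semaphorins are the secreted ones, known mainly as repellents. Of the 7 genes, 5 were called higher and 0 lower, and the family summed to 12.1 FPKM in ESCs against 22 FPKM in NCs. Sema3d was at 0.067 and 4.47 FPKM (66.6-fold), the second largest fold of the guidance genes called, and Sema3a, which collapses growth cones, at 0.0422 and 1.59 FPKM (37.6-fold). Sema3c (1.47 and 3.82 FPKM, 2.59-fold), Sema3f (2.11 and 4.42 FPKM, 2.1-fold) and Sema3b (1.8 and 3.76 FPKM, 2.08-fold) were already above 1 FPKM in ESCs. Sema3e, which needs no neuropilin and binds Plxnd1, was the only class 3 gene with less RNA in NCs, at 6.52 and 3.78 FPKM. This 1.72-fold difference was not called. Sema3e held 53.8% of the class 3 sum in ESCs, whereas Sema3d was highest in NCs with 20.3%. Sema3g stayed at 0.131 FPKM or less.

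Class 4 semaphorins span the membrane and are ligands of plexin-B receptors. Their sum was 41.5 FPKM in ESCs against 37 FPKM in NCs, with single members going both ways. The direction of this sum turned with the scaling of the columns, as the ratio of NCs to ESCs was 0.891 as deposited and 1.09 after both were scaled to the same sum. Sema4c was at 3.46 and 10.7 FPKM (3.08-fold higher), and Sema4b at 13.3 and 6.15 FPKM (2.16-fold lower). Sema4d, the ligand of Plxnb1, was at 13.4 and 8.9 FPKM. Sema4a (3.68 and 2.61 FPKM), Sema4f (1.67 and 2.17 FPKM) and Sema4g (6.02 and 6.44 FPKM) were within 2-fold as well. The lower call of Sema4b was lost when both columns were scaled to the same sum.

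Class 6 semaphorins also span the membrane and act through plexin-A receptors. Sema6c was at 4.48 FPKM in ESCs against 11.7 FPKM in NCs (2.61-fold), and Sema6d, which has a part in heart formation, at 0.115 and 1.47 FPKM (12.8-fold). Sema6a, known from the cerebellum and the corticospinal tract, was lower at 3.86 and 1.22 FPKM (3.16-fold). Sema6b was at 2.9 and 2.33 FPKM. Sema6c held 39.4% of the class 6 sum in ESCs and 69.9% in NCs, and without it the ratio of the sums was 0.73 in place of 1.47. Sema5b, of the class with thrombospondin repeats, was at 1.76 and 1.98 FPKM, and Sema5a was under 1 FPKM in both. Sema7a, the lipid-anchored semaphorin, was at 1.36 and 1.37 FPKM.

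Plexins are the signalling receptors of the semaphorins, and their sum was 60.5 FPKM in ESCs against 74.1 FPKM in NCs. Of the 9 plexins, only Plxna2 was called, at 0.913 FPKM in ESCs against 7.12 FPKM in NCs (7.8-fold). The highest plexins were nearly level: Plxna1 was at 25.2 and 24.2 FPKM and Plxnb2 at 21.9 and 22.1 FPKM. The direction of Plxna1 turned with the scaling of the columns. Plxna1 was the highest of all guidance genes in ESCs, with 8.43% of their sum. Plxnb1 (5.16 and 9.18 FPKM, 1.78-fold), Plxnd1 (3.2 and 5.08 FPKM, 1.59-fold) and Plxna3 (3.59 and 5.29 FPKM) were higher in NCs but not called. Plxna4, Plxnb3 and Plxnc1 were under 1 FPKM, with Plxnc1 nearest to it in NCs at 0.979 FPKM.

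The other neuropilin, Nrp2, differed from Nrp1 at 4.28 FPKM in ESCs against 3.48 FPKM in NCs. Nrp2 therefore made up 96.7% of the neuropilin sum in ESCs, and Nrp1 92.1% of it in NCs. Without Nrp1 the ratio of the sums was 0.814, below 1, in place of 9.96.

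Netrin-1 (Ntn1), the laminin-related attractant released by the floor plate, was at 3.56 FPKM in ESCs against 10.1 FPKM in NCs (2.82-fold). Ntn3 was level at 4.33 and 4.63 FPKM, and it overlaps Tbc1d24 on the same strand. Ntn4 (0.257 and 0.969 FPKM) and Ntn5 (0.562 and 0.431 FPKM) did not reach 1 FPKM, and Ntn5 shares 18.5% of its 50-base words with Sec1. Ntn1 held 62.5% of the netrin sum in NCs.

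Of the netrin receptors, Dcc mediates attraction. Dcc was at 0.0416 FPKM in ESCs against 1.27 FPKM in NCs (30.5-fold), and 92.1% of entries at 1 FPKM or more still had a higher NC value. Its relative neogenin (Neo1), which also binds the repulsive guidance molecules, was far higher at 9.05 and 22.5 FPKM (2.49-fold) and made up 94.7% of the sum of both in NCs. The Unc5 receptors, which turn the response to netrin into repulsion, summed to 14 FPKM in ESCs against 10.2 FPKM in NCs. Unc5b, the main one, was at 12 and 6.9 FPKM, a 1.73-fold difference that was not called, and Unc5a at 1.93 and 2.77 FPKM. Unc5a overlaps Hk3 on the opposite strand. Unc5c (0.0281 and 0.371 FPKM) and Unc5d (0.0606 and 0.114 FPKM) were under 1 FPKM. Without Unc5b the ratio of the Unc5 sums was 1.61 in place of 0.727.

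Slits repel commissural axons from the midline. Slit2 was at 0.954 FPKM in ESCs against 6.12 FPKM in NCs (6.42-fold), and Slit1 at 0.407 and 1.27 FPKM (3.11-fold). Slit3 was at 4.12 and 3.63 FPKM, and its direction turned when both columns were scaled to the same sum. The main Slit was Slit3 in ESCs (75.2% of the sum) and Slit2 in NCs (55.6%). The introns of Slit2 and Slit3 hold the microRNA genes Mir218-1 and Mir218-2.

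Of the Slit receptors, Robo2 (mm10, minus strand, chr16:73891839-74411825) was at 0.0903 FPKM in ESCs against 3.09 FPKM in NCs (34.2-fold). Robo1, its neighbour on the chromosome, was at 6.3 and 8.94 FPKM and remained the main Robo gene with 73.5% of the sum in NCs. Robo3, the receptor of precrossing commissural axons (0.124 and 0.0653 FPKM), and Robo4, the endothelial member (0.392 and 0.075 FPKM), were under 1 FPKM in both.

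Ligands and receptors were compared as groups. Of the 31 ligands at 1 FPKM or more, 17 were called higher and 2 lower, and ligand FPKM summed to 121 in ESCs and 188 in NCs. Of the 23 receptors, 8 were called higher and 2 lower, and receptor FPKM summed to 179 and 226. Of all 13293 entries at 1 FPKM or more, 12.5% were called higher and 10.6% lower. No test was made of the difference between these groups, or of either against all entries.

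Ligand and receptor levels were then set side by side for textbook pairs. For class 3 semaphorins other than Sema3e, ligands summed to 5.6 and 18.2 FPKM and neuropilins to 4.43 and 44.1 FPKM, so both sides were higher in NCs. Slits (5.49 and 11 FPKM) and Robo1 with Robo2 (6.39 and 12 FPKM) also went the same way. Netrin-1 had a receptor sum of 23.1 FPKM in ESCs against 34 FPKM in NCs. Ephrin-B ligands summed to 10.3 and 34.7 FPKM beside a nearly level EphB sum. Ephrin-A ligands summed to 27.7 and 46.3 FPKM beside the lower EphA sum, so their sides went apart. Sema3e was lower in NCs and its receptor Plxnd1 was higher. Sema6 ligands went from 11.4 to 16.7 FPKM beside plexin-A sums of 29.8 and 36.7 FPKM. Class 4 ligands had plexin-B sums of 27.2 and 31.3 FPKM, and class 5 ligands (2.39 and 2.7 FPKM) had sums of 30 and 36.8 FPKM for plexin-A with Plxnb3. Sema7a had its receptor Plxnc1 under 1 FPKM in both conditions.

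**Figure D4:**
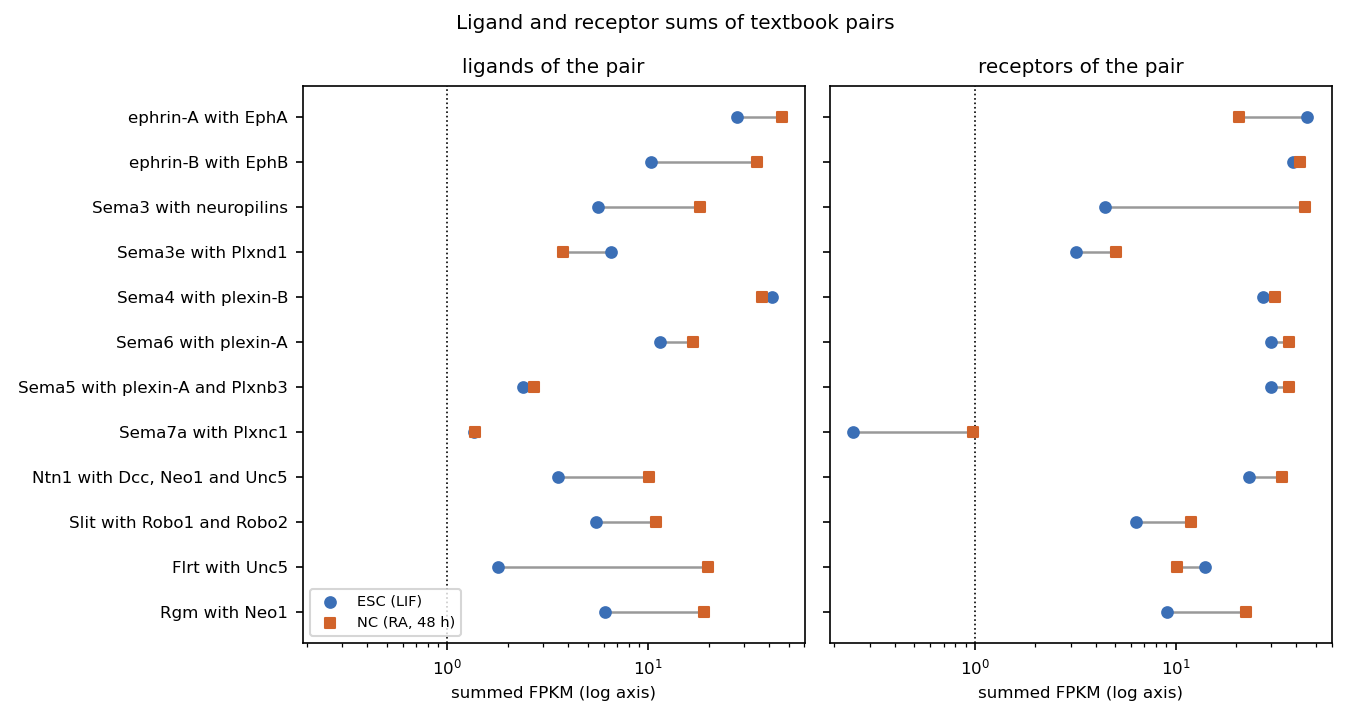
Summed FPKM (log axis) of the ligands (left) and receptors (right) of textbook pairs in ESCs (circles) and NCs (squares). The dotted line marks 1 FPKM. Neuropilins show the longest receptor line, from 4.43 to 44.1 FPKM, and EphA and Unc5 receptors are lower in NCs while their ligands are higher.

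Cues and receptors outside these families were read as a list. Of 19 such genes, 14 reached 1 FPKM, 8 were called higher and 2 lower, and the median log2 ratio was 1.73. Calls over all entries were 12.5% higher and 10.6% lower, and this list was not tested against them. Flrt3, a membrane protein that binds Unc5 receptors, was at 1.28 FPKM in ESCs against 16.9 FPKM in NCs (13.2-fold), and Flrt2 at 0.363 and 2.34 FPKM. The Flrt sum was 1.79 and 19.8 FPKM beside the lower Unc5 sum. Rgma, a ligand of Neo1, was at 1.27 and 13.1 FPKM (10.4-fold), and with Rgmb it summed to 6.07 and 19 FPKM beside the higher Neo1. Draxin, a repellent that binds Dcc, was at 0.369 and 1.67 FPKM, Ntng2 at 0.358 and 1.77 FPKM, and Nell2, a ligand of Robo3, at 0.657 and 2.08 FPKM. Adam10, a protease that cuts ephrins, was at 10.1 and 21 FPKM. The chemokine Cxcl12 was lower at 6.37 and 2.12 FPKM, and its receptor Cxcr4 higher at 0.869 and 1.99 FPKM. Adam23 was lower at 37.3 and 13.7 FPKM.

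Cytoplasmic proteins that carry guidance signals to the cytoskeleton were read as another list. Of 50 such genes, 48 reached 1 FPKM, 10 were called higher and 2 lower, with a median log2 ratio of 0.16. Over all entries the calls were 12.5% higher and 10.6% lower, and the list was not tested against them or against the guidance genes. The highest were the actin severing protein gene Cfl1 (844 and 790 FPKM) and the GTPase genes Rhoa (202 and 181 FPKM) and Cdc42 (183 and 192 FPKM). Genes called higher included Dpysl4 (1.83 and 7.98 FPKM) and Dpysl5 (9.73 and 20.7 FPKM), of the family that mediates Sema3a signals. Dpysl2 (3.34 and 3.97 FPKM), Dpysl3 (8.97 and 17.5 FPKM) and Crmp1 (28.7 and 20.4 FPKM) of this family were within 2-fold. Genes called higher also included Farp1 (5.49 and 15.9 FPKM) and Farp2 (0.473 and 1.06 FPKM), exchange factors that work with plexin-A receptors. The kinase gene Fyn (9.74 and 20.9 FPKM) was called higher as well. Nck2 (8.03 and 18.6 FPKM), Srgap1 (1.44 and 3.33 FPKM), Chn2 (1.21 and 3.35 FPKM), Ngef (0.733 and 1.48 FPKM) and Vav3 (0.884 and 1.78 FPKM) made up the rest. Tiam1 (11.1 and 4.67 FPKM) and Mical1 (11.5 and 5.7 FPKM) were lower. Of 13 axonal adhesion molecules, 6 reached 1 FPKM, with Alcam (0.214 and 2.57 FPKM) and Nrcam (0.668 and 2.03 FPKM) called higher and Cntn2 (1.52 and 0.371 FPKM) lower. The highest of these molecules besides Alcam were Ncam1 (1.48 and 2.61 FPKM) and Nfasc (1.97 and 2.15 FPKM), both within 2-fold.

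Markers of other cell types moved beside the guidance genes. Neural progenitor markers summed to 23.5 FPKM in ESCs against 168 FPKM in NCs. Of the floor plate markers, Foxa2 was called higher (0.617 and 5.24 FPKM), while Shh stayed under 1 FPKM (0 and 0.374 FPKM). Of 5 endoderm markers 3 were higher, among them Sox17 (0.861 and 4 FPKM), with a list sum of 7.29 and 14.8 FPKM and Afp at 0.0871 FPKM or less. Of 4 fibroblast markers 3 were higher, among them Col1a2 (3.47 and 23.3 FPKM), and Thy1 was lower (9.64 and 1.8 FPKM), with a list sum of 19.4 and 41.8 FPKM. The mesoderm list summed to 3.51 and 7.69 FPKM with 1 of 5 genes higher, Meox1 (0.253 and 5.43 FPKM). Its other genes had lower values in NCs and were not called. These were Mesp2 (1.61 and 1.05 FPKM), Tbx6 (0.888 and 0.808 FPKM), T (0.628 and 0.299 FPKM) and Mesp1 (0.133 and 0.11 FPKM). Neural crest markers summed to 6.07 and 4.2 FPKM, with Tfap2a (0.207 and 1.92 FPKM) higher and Foxd3 (4.7 and 0.334 FPKM) lower. Sox10 had the higher value in NCs but was not called (1.16 and 1.95 FPKM), so the lower sum came from Foxd3. For the vascular members of the guidance families, 2 of 4 endothelial markers were lower. They were Pecam1 (24.7 and 2.79 FPKM, also known from ESCs) and Tek (3.34 and 1.59 FPKM). Cdh5 was at 0.297 FPKM or less, and Kdr had the higher value in NCs but stayed under 1 FPKM (0.339 and 0.697 FPKM). The part of these cell types in the guidance gene values was not tested.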

How the data were processed

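RNA was measured in 3 ESC and 3 NC samples with TruSeq libraries on an Illumina HiSeq. The authors mapped reads to mm10 with TopHat 2.0.8 (on Bowtie2, version 2.1.0), computed FPKM with Cufflinks 2.0.2, merged assemblies with Cuffmerge and compared conditions with Cuffdiff, whose version is not given in the sources used here. The deposited table holds 1 FPKM per gene and condition, pooled by the authors. The NC heading reads FPK and was taken as FPKM. Columns with the authors' status, fold changes, test statistics and p-values were not used. Single replicates and total fragments are not in this table, so samples were not compared with each other and depth was read from low values only.

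Ratios used FPKM as deposited, without a pseudocount. A call needed 2-fold and at least 1 FPKM in the higher condition. The background was every entry at 1 FPKM or more in either condition. The planned limma test needs replicate values and was not run. All guidance genes at 1 FPKM or more were named, and the called genes and 3 highest of the lists of other cues, effectors and adhesion molecules. Marker lists are given by counts, sums and examples. The guidance genes, lists and limits were chosen with earlier results of these data known.

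Positions, overlaps, transcript lengths and shared 50-base words came from GENCODE M21 on GRCm38 (mm10), and promoter windows from RefSeq on GRCm38.p6. No protein sequence was used here, and a result for 1 marker gene is not reported here. Python 3.11.15, numpy 2.4.6, pandas 2.3.3 and matplotlib 3.10.9 were used. Alternatives were other fold limits, filters, pseudocounts and scalings, and family sums without their highest member.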

Additional observations from a re-analysis of the deposited data

How the results depend on the processing

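The count of guidance genes called higher was 25. It was 10 at a fold limit of 4 and 14 with at least 5 FPKM, since both keep fewer genes. It lay between 19 and 32 under the other alternatives run. The count called lower was 4. It was 7 at a fold limit of 1.5, which added Epha4, Sema3e and Unc5b, and 1 at a fold limit of 4, which left Epha2. Otherwise it lay between 3 and 6. A pseudocount of 1 FPKM lost the calls of Efna4, Ephb6, Sema3b, Sema3c, Sema3f, Slit1 and Sema4b. Scaling each column to the same sum moved every log2 ratio up by 0.29, and with it the median over entries at 1 FPKM in both conditions from -0.05 to 0.25. Plxnb1 was then called higher, Sema4b was no longer called lower, and Ephb4, Plxna1 and Slit3 turned direction. For genes with a call, the pseudocounts and scalings could not have turned the direction, so they are no check of it. A pseudocount keeps the order of both values, and no scaling moved a log2 ratio by more than 0.29.

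The ratio of the family sums (NC to ESC) was also computed without the member that was highest over both conditions together. It was 0.732 for EphA without Epha2 (0.457 with it), 3.25 for Sema3 without Sema3e (1.81), 0.73 for Sema6 without Sema6c (1.47), 2.72 for plexin-A without Plxna1 (1.23) and 1.75 for plexin-B without Plxnb2 (1.15). It was 0.814 for neuropilins without Nrp1 (9.96), 1.17 for netrins without Ntn1 (1.85), 30.5 for Dcc without Neo1 (2.62 for both), 1.61 for Unc5 without Unc5b (0.727), 5.43 for Slits without Slit3 (2.01) and 5.33 for Robo genes without Robo1 (1.76). For Slits, Slit2 was the main member in NCs, and the ratio without Slit2 was not computed. The value without Slit3 therefore does not show how far the Slit sum rests on Slit2. For the Sema4 sum, scaling both columns to the same sum turned the direction (0.891 as deposited and 1.09 after it).

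No paired analysis was possible because the table holds 1 pooled value per condition and no values of the replicates that share a number. Leaving out replicates in turn was not run for the same reason. Pooled values give no spread between replicates, and depth limits the folds of genes with few fragments in ESCs.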
